A study of Mus musculus with 4 samples.

Results

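The Schlafen genes encode a family of vertebrate proteins named after the German word for sleep, because a founding mouse member slowed the growth of T-lineage cells. The rows of 7 family members, Slfn1, Slfn2, Slfn3, Slfn4, Slfn5, Slfn8 and Slfn9, were taken by symbol from the 24346 genes listed for each of 4 mouse liver libraries. The members were chosen by name, with earlier results of these data known. The livers came from male C57BL/6 wild-type mice, 8 weeks old when the diets began, which were fed for 3 weeks. The control group (n = 2) received the NASH diet, a steatohepatitis-inducing feed high in fat, cholesterol and sucrose that also holds a bile salt. The 7KC group (n = 2) received the NASH diet with 7-ketocholesterol (7KC), an oxidized derivative of cholesterol. No group on a normal diet was among the samples, so every value refers to mice with diet-induced liver disease, and per the study's methods the livers were taken before any skin treatment.

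Schlafen proteins share an N-terminal domain that, in several members, binds or cuts transfer and ribosomal RNA. Mouse members fall into short proteins (Slfn1 and Slfn2), proteins of intermediate length (Slfn3 and Slfn4) and long proteins with a helicase-like C-terminal part (Slfn5, Slfn8 and Slfn9). Many are switched on by interferons and are found mainly in lymphocytes and myeloid cells, where they restrain growth, keep resting cells quiescent or act on viral RNA. In a whole liver, more cells of a type and more RNA per cell cannot be told apart.

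The 7 members lie side by side on chromosome 11 of the mouse genome build mm10 (GRCm38), within 264 kb between 82951349 and 83215154. By the GENCODE annotation, Slfn5 (82951349 to 82964840), Slfn2 (83065112 to 83070678), Slfn1 (83116849 to 83122670), Slfn4 (83175186 to 83190216) and Slfn3 (83191330 to 83215154) are on the plus strand. Slfn9 (82978390 to 82991830) and Slfn8 (83002158 to 83020810) are on the minus strand. Promoter sequences of all 7 members were available from RefSeq (build GRCm38.p6), as windows from 250 bases before to 50 bases after an annotated start. The windows are described here by the exact short strings they held. The 4 short and intermediate members, Slfn1, Slfn2, Slfn3 and Slfn4, each held ACTTCCTGG, which contains the core recognized by ETS-family factors. It was the longest string shared by these 4 windows, and was chosen after they had been read. Its presence in all 4 was therefore fixed by that choice, and the share of all genes given below is no test of it. The core alone, TTCC or its reverse complement, also occurs in the windows of Slfn5, Slfn8 and Slfn9. The 3 long members, Slfn5, Slfn8 and Slfn9, each held GAAA, any 2 bases and a further GAAA, or the reverse complement, the core of the interferon-stimulated response element (ISRE). No member held both of these exact strings, and none held TTCNNNGAA, a form of the gamma-activated site. Inexact forms of the sites were not searched. Among all 27025 genes with a window, 0.999% held the ETS letters, 3.99% the ISRE letters and 9.55% the gamma-activated site, on either strand. The 30 bases around each match show how alike the sites are. The matched letters are in capitals, and each sequence is read 5′ to 3′ on the strand of its gene.

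Slfn1 (chr11:83116736-83116765, plus strand, match 74 bases before the start): gatgtctcacACTTCCTGGagtgacatcaa
Slfn2 (chr11:83065047-83065076, plus strand, match 55 bases before the start): cagggctttcACTTCCTGGagggtgacagt
Slfn3 (chr11:83191278-83191307, plus strand, match 42 bases before the start): ggatgacagaACTTCCTGGgggagggactc
Slfn4 (chr11:83175103-83175132, plus strand, match 73 bases before the start): ttccggttatACTTCCTGGagtgacgaaat
Slfn5 (chr11:82951937-82951966, plus strand, match 155 bases before the start): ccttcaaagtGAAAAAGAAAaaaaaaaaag
Slfn8 (chr11:83020839-83020868, minus strand, match 48 bases before the start): atttgagcagTTTCGTTTTCcccaaaagca
Slfn9 (chr11:82991856-82991885, minus strand, match 45 bases before the start): atccgagcagTTTCGTTTTCccaaaaacaa

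The longest string shared by the Slfn1 and Slfn4 windows ran to 15 bases and held the ETS letters. The Slfn8 and Slfn9 windows shared a string of 20 bases (tctggcagcatgcctgcagc) farther from the start than the ISRE match, and the longest string common to all 3 long members had 7 bases. Slfn8 has a second annotated start, from which the same match lies 136 bases away. The RefSeq start of Slfn5 lies inside the longer GENCODE gene model, and so does its match. The longer stretches below hold the 200 bases before the start of Slfn2, the most abundant member, and of Slfn9, a long member, with the same letters in capitals. They are at chr11:83064912-83065111 (plus strand) and chr11:82991831-82992030 (minus strand). A match describes letters in a window and says nothing of whether a factor was bound there, and the lack of one says only that these letters are not in it.

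Slfn2: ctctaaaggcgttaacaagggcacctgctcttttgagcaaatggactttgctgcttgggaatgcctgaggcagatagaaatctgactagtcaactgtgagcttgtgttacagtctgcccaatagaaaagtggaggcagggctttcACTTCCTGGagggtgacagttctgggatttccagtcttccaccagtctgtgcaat
Slfn9: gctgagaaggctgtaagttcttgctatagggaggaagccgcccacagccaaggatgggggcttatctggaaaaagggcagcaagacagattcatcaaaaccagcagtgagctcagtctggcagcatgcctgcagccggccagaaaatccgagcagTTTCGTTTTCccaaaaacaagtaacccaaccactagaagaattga

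Levels are given as FPKM, the deposited count of fragments of a gene scaled to the length of its exons and to the mapped fragments of its library. The libraries held an estimated 1.36e+07 to 1.7e+07 mapped reads, 10967 to 11415 genes were at 1 FPKM or more, and the correlation of log2 values across genes was 0.958 to 0.983 for the pairs of libraries. The liver label was borne out by 10 hepatocyte markers, whose levels summed to 73774.5 and 62973 FPKM in the controls, then to 53661 and 40450.2 FPKM with 7KC. Differences were tested with limma on log2(FPKM + 0.5), a scale that understates the change of low genes. The test covered 12299 genes, those averaging 0.5 FPKM or more, and an adjusted p (Benjamini-Hochberg over all of them) under 0.05 was the threshold. Of the 7 members, 5 were tested, and each of these had a mean above 0.5 FPKM in the control group alone. Slfn3 and Slfn4 were below the filter.

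Dietary 7KC was accompanied by higher levels of all 5 tested members. Slfn1 rose past the threshold, and Slfn2, Slfn5, Slfn8 and Slfn9 were higher without passing it. In each of the 5, the lower 7KC library exceeded the higher control library, which was so for 25.1% of all tested genes. The group means of 4 of them differed at least 2-fold without overlap, against 6.5% of all tested genes. With limma 1 of 5 passed, against 0.48% of all tested genes that passed as higher, and 0.0244% that passed as lower. At an unadjusted p under 0.05 all 5 were higher, as were 12% of the tested genes. The median log2 change was 0.82 for the 5 members and -0.03 for all tested genes. Of the 12299 tested genes, 195 had a larger log2 change than Slfn2, the member with the largest, and 865 had a larger one than Slfn9, the member with the smallest. The values of the 5 members stood for an estimated 24 to 658 reads each.

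**Figure D1:**
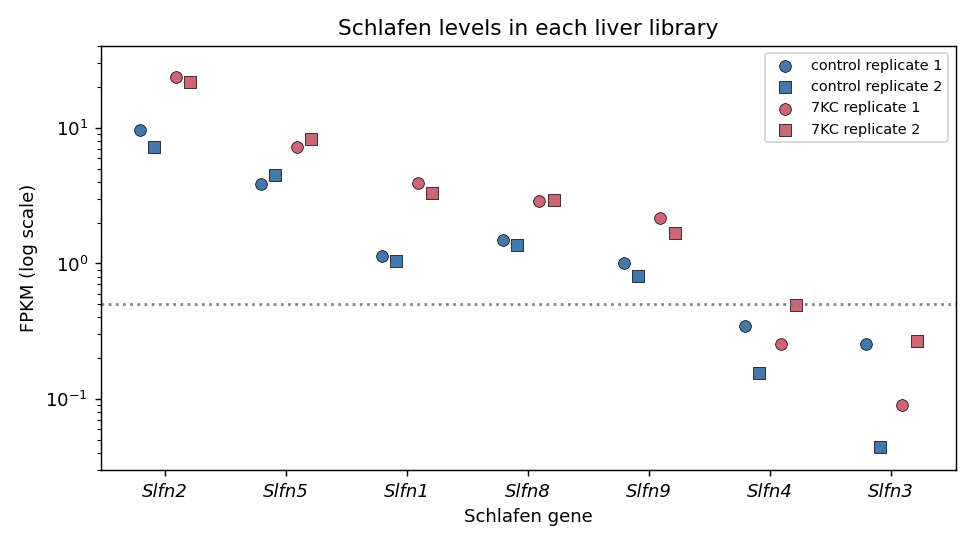
FPKM (log axis) of the 7 Schlafen genes, ordered by mean level, in each control (blue) and 7KC (red) library. The dotted line marks 0.5 FPKM, the mean needed for a test, and the groups do not overlap in the 5 genes on the left but do in Slfn4 and Slfn3.

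Slfn2, whose loss in mice breaks the quiescence of T cells and monocytes, was the most abundant member in every library. It was at 9.67 and 7.23 FPKM in the controls, then at 23.4 and 21.6 FPKM with 7KC. The groups were far apart, and the lower 7KC library had more than double the level of the higher control library. The mean was 8.45 ± 1.72 FPKM (SD, n = 2) in the control group and 22.5 ± 1.28 FPKM (SD, n = 2) in the 7KC group, a ratio of 2.67. The log2 change was 1.38 (SE 0.16, 95% interval 0.96 to 1.79), and the limma adjusted p of 0.0512 just missed the threshold.

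Slfn1, the family's founding growth-restraining member, was at 1.13 and 1.05 FPKM in the controls, then at 3.92 and 3.33 FPKM with 7KC. The ratio of the means, 1.09 ± 0.0556 and 3.62 ± 0.422 FPKM (SD, n = 2 each), was 3.33, the highest of the 5 tested members. Its log2 change of 1.37 (SE 0.16, 95% interval 0.98 to 1.77) was close to that of Slfn2, and its limma adjusted p was 0.0486. The difference between Slfn1 and Slfn2 was not tested. The call of Slfn1 stood under 5 of the 14 alternative settings tried, and it was lost on leaving out any of 3 libraries. Its adjusted p was 0.112 when control replicate 2 was left out. Without 7KC replicate 1 it was 0.159, and without the other 7KC library 0.252. Among the 5 settings that kept the call was a crossed replicate block, chosen after the data were seen. The control values of Slfn1 stood for an estimated 32 and 24 reads. Their counting error amounts to 17.7% and 20.4%, more than the coefficient of variation of 5.11% seen between these libraries. Slfn1 was the 60th of the tested genes by p-value.

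The long members Slfn5, Slfn8 and Slfn9 had smaller log2 changes than the short members, with little spread among the 3. Slfn5, a nuclear member induced by type I interferon, was at 3.87 and 4.51 FPKM in the controls, then at 7.26 and 8.28 FPKM with 7KC. This was a ratio of 1.85, and the log2 change was 0.82 (SE 0.14, limma adjusted p 0.0707). Slfn8 was at 1.49 and 1.37 FPKM in the controls, then at 2.86 and 2.93 FPKM with 7KC, a ratio of 2.03. The 7KC libraries differed less in this member than in any other, with a coefficient of variation of 1.74%. The counting error of these values was larger, 8.19% and 8.06%, so this closeness does not describe the gene. The log2 change of Slfn8 was 0.82 (SE 0.14, adjusted p 0.0748). Slfn9 was at 1.0016 and 0.809 FPKM in the controls, then at 2.15 and 1.68 FPKM with 7KC. Its ratio of 2.11 was not below that of Slfn5, but its log2 change of 0.78 had the largest error of the 5 (SE 0.19, adjusted p 0.133). On this scale the added 0.5 FPKM takes more from the change of Slfn9, the lowest tested member, than from that of Slfn5.

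**Figure D2:**
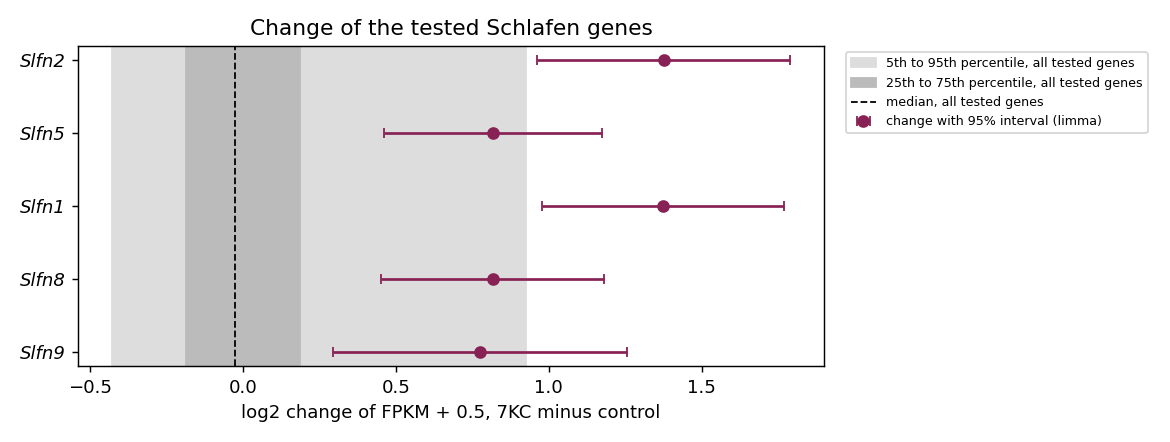
Log2 change of FPKM + 0.5 (7KC minus control) of the 5 tested Schlafen genes, with the 95% interval from limma, over grey bands for the 5th to 95th and the 25th to 75th percentile of all 12299 tested genes. Slfn1 and Slfn2 lie above the 95th percentile (0.93), and the 3 long members between the 75th (0.19) and the 95th.

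The 2 intermediate members were close to the limit of detection, and no difference was detectable. Slfn4, a member of macrophages and other myeloid cells, was at 0.348 and 0.157 FPKM in the controls, then at 0.257 and 0.490 FPKM with 7KC, about 22, 8, 13 and 25 reads. Slfn3, studied in CD4+ T cells and gut epithelium, was at 0.253 and 0.0448 FPKM in the controls, then at 0.0904 and 0.269 FPKM with 7KC, about 7, 1, 2 and 6 reads. In both genes the groups overlapped. Without the filter their log2 changes were 0.21 for Slfn4 (95% interval -0.33 to 0.76) and 0.07 for Slfn3 (95% interval -0.51 to 0.66). The scale compresses changes at such levels, and these intervals do not bound the ratio of the FPKM values.

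Other symbols of the family were at or near 0, where a listed 0 may stand for an estimate that failed. The pseudogene Slfn10-ps was at 0.0881 FPKM and listed at 0 in the controls, and at 0.0881 and 0.219 FPKM with 7KC. Slfn14, a ribosome-associated endoribonuclease of platelets and reticulocytes, was listed at 0 in 3 libraries and at 0.0415 FPKM, about 2 reads, in 7KC replicate 1. Slfn5os, transcribed against Slfn5, stood for at most about 1 read in any library, and Slfnl1, a Schlafen-like gene on chromosome 4, was listed at 0 throughout. Slfn1l1 was not matched to a listed symbol.

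Reads of these neighbours can be assigned to the wrong member where their transcripts are identical. Of the distinct stretches of 75 bases, the read length, in the longest GENCODE transcript of each member, none of Slfn1 and 1.7% of Slfn2 also occurred in a transcript of another gene. The share was 3.24% for Slfn4, 6.06% for Slfn9, 7.52% for Slfn8, 8.37% for Slfn3 and 8.81% for Slfn5. For Slfn5 most of these stretches lay in its antisense gene Slfn5os, and for Slfn8 and Slfn9 most lay in the pseudogene Slfn10-ps. Both of those genes were near 0 here.

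The summed level of the 7 members was 17.8 and 15.2 FPKM in the controls, against 39.97 and 38.6 FPKM with 7KC. The means were 16.5 ± 1.83 and 39.3 ± 0.968 FPKM (SD, n = 2 each), a ratio of 2.39. For a single value such as this, the 3 ways to split 4 libraries evenly allow no 2-sided exact permutation p below 0.333, so no single value can pass such a test in this design.

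The order of the members by level was the same in both groups at the top and the bottom but not in the middle. Slfn2 made up 54.4% and 47.7% of the sum in the controls, against 58.6% and 56.0% with 7KC, and Slfn5 came next with 18.2% to 29.8%. In the control group Slfn8 followed, then Slfn1, then Slfn9, and the libraries of these neighbours in the order did not overlap. In the 7KC group Slfn1 stood above Slfn8, again without overlap, and Slfn9 stayed below both. Slfn4 was below Slfn9 in every library and above Slfn3 on average, but the values of Slfn4 and Slfn3 overlapped across the libraries of each group.

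**Figure D3:**
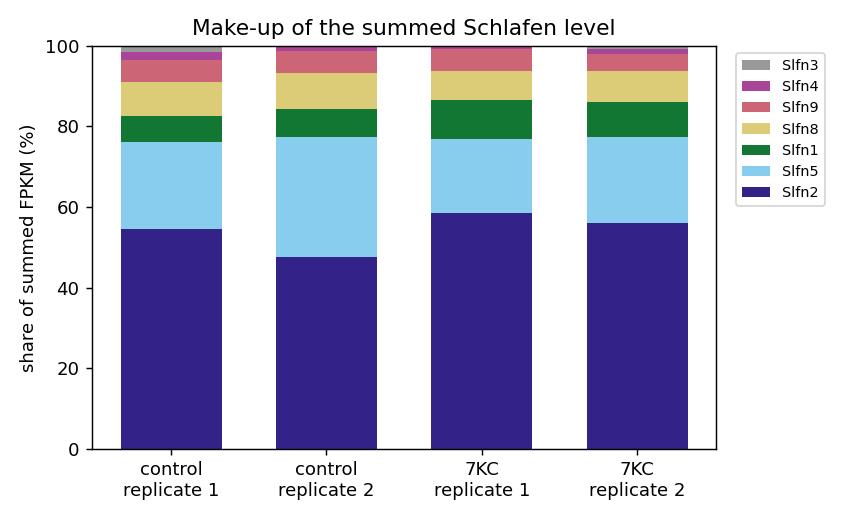
Share of the summed FPKM of the 7 Schlafen genes (%) taken by each gene in the 4 libraries. Slfn2 takes 47.7% to 58.6%, and the share of Slfn1 is 6.35% and 6.92% in the controls, against 9.82% and 8.62% with 7KC.

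Ratios within a library do not depend on its scaling, and for some pairs of members they differed between the groups. The level of Slfn1 was 0.755 and 0.768 times that of Slfn8 in the controls, against 1.37 and 1.13 times with 7KC. Relative to Slfn5 it was 0.291 and 0.232 times in the controls, and 0.540 and 0.402 times with 7KC. Slfn2 likewise stood higher against Slfn8, at 6.47 and 5.29 times in the controls, against 8.18 and 7.37 times with 7KC. In these 3 ratios the groups did not overlap. The groups did overlap in the ratio of Slfn8 to Slfn9, which was 1.49 and 1.69 in the controls, against 1.33 and 1.75 with 7KC. These pairs were chosen after their values were seen, and their differences between the groups were not tested.

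Genes on either side of the cluster were then compared, to see how far the pattern extended. Of 30 other listed genes within 500 kb of its ends, 18 were tested. None passed the limma threshold, and the median log2 change was 0.10. At an unadjusted p under 0.05, 3 of the 18 were higher, beside 12% of all tested genes, and 1 was lower. Without overlap 5 of the 18 were higher, beside 25.1% of all tested genes. On the side of Slfn5, the nearest genes were the chaperone gene Unc45b and Nle1, a gene of ribosome assembly. Unc45b was at 0.694 and 0.990 FPKM in the controls, then at 0.694 and 0.668 FPKM with 7KC, and Nle1 at 1.38 and 1.80 and at 1.45 and 1.76 FPKM. In both genes the groups overlapped, with log2 changes of -0.18 (SE 0.21, adjusted p 0.695) and 0.01 (SE 0.19, adjusted p 0.98).

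On the side of Slfn3, the nearest gene was the non-coding transcript AI662270, 8422 bases beyond it. It was at 4.56 and 3.31 FPKM in the controls, then at 9.89 and 10.2 FPKM with 7KC, a ratio of 2.55. Its log2 change of 1.26 (SE 0.17, limma adjusted p 0.0534) was near those of Slfn1 and Slfn2, without passing the threshold. The next, AA465934, was at 1.24 FPKM and listed at 0 in the controls and at 0.829 and 1.23 FPKM with 7KC, and the groups overlapped. The other genes with an unadjusted p under 0.05, named after their values were seen, were Gm11423, which was lower, and the chemokine genes Ccl4 and Ccl5. Ccl5, made by T cells, had the largest log2 change of the 18 (2.34, SE 0.42, adjusted p 0.0774).

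**Figure D4:**
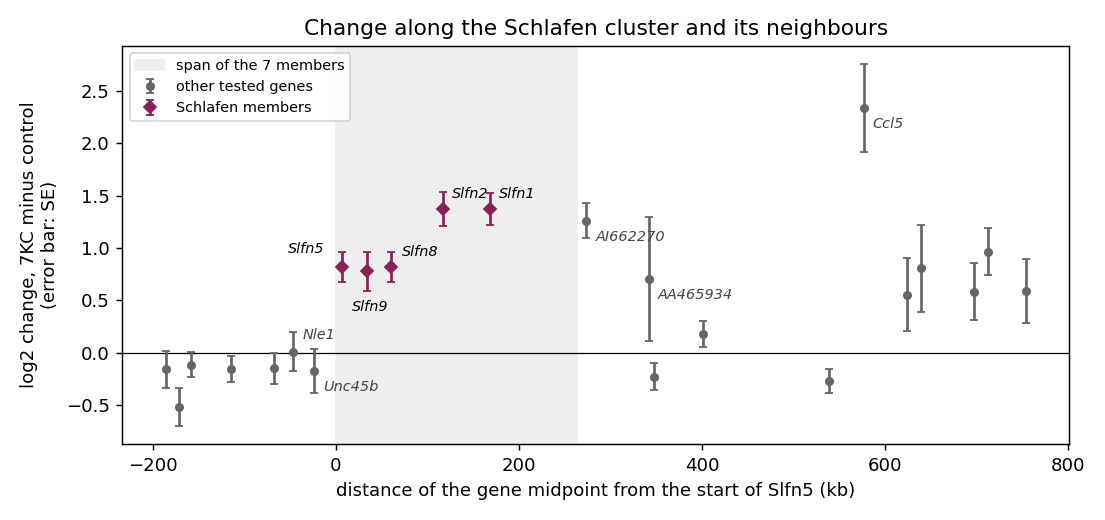
Log2 change (7KC minus control, error bars SE) of the tested genes against the distance of the gene midpoint from the start of Slfn5 (kb). Diamonds are Schlafen genes and grey circles other genes, of which those before the cluster lie between -0.52 and 0.01. The 5 Schlafen genes lie between 0.78 and 1.38. Of the genes after the cluster, AI662270 (1.26), Ccl4 (0.97) and Ccl6 (0.81) lie in that range and Ccl5 (2.34) above it, and the others lie below it.

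The interferon pathway, which controls many Schlafen genes, was examined from ligand to effector. Of 11 interferon ligands only Ifng, the gene of interferon gamma, reached the level needed for a test, and 9 were listed at 0 in every library. Ifng was at 0.408 and 0.362 FPKM in the controls, then at 2.99 and 1.38 FPKM with 7KC. The groups did not overlap, and the log2 change was 1.53 (SE 0.32, limma adjusted p 0.104). Both control values were below the mean needed for a test, so Ifng met the filter only through its 7KC values. That Ifng was higher was thus favoured by the filter.

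Of 18 tested receptors, kinases and transcription factors of the pathway, 2 rose past the threshold, against 0.48% of all tested genes. At an unadjusted p under 0.05, 9 were higher, against 12% of all tested genes, and none was lower. The median log2 change was 0.47. Among those past the threshold was Irf8, a factor of myeloid cell development. Irf8 was at 10.6 and 8.16 FPKM in the controls, then at 26.8 and 26.2 FPKM with 7KC, so that the log2 change was 1.46 (SE 0.15, limma adjusted p 0.0369).

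Of 18 interferon-induced genes that act on RNA, as several Schlafen proteins do, 3 rose past the threshold, against 0.48% of all tested genes. At an unadjusted p under 0.05, 14 were higher, against 12% of all tested genes, and none was lower. Oas1b and Oas1g of this list averaged under 0.5 FPKM in the control group, so they met the filter only through their 7KC values. The median log2 change was 0.60. Those past the threshold were Ifit2, which binds RNA and restrains its translation, and Oasl2 and Oasl1 of the oligoadenylate synthetase family, whose log2 changes were 1.92, 1.44 and 1.42 (limma, with adjusted p of 0.0244, 0.0329 and 0.0412). Of 15 tested genes of lymphocyte quiescence, the state in which Slfn2 is known to hold T cells, none passed with limma. At an unadjusted p under 0.05, 2 were higher, a share near the 12% of all tested genes, and 1 was lower, and the median log2 change was 0.02. The smallest p was that of the transcription factor gene Runx1 (log2 change 0.94, SE 0.23, adjusted p 0.135). The quiescence list was measured in whole liver, so its values do not describe lymphocytes alone. Tob1 was at 51.4 to 84.7 FPKM and Foxo1 at 14.2 to 20.1 FPKM over the libraries, against 2.12 to 6.58 FPKM for the T-cell gene Cd3e. Whether the quiescence of lymphocytes differed was not tested.

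Markers of T cells, NK cells and monocytes, in which Schlafen genes are known to be expressed, were higher as well. All 14 T-cell markers were tested, and each was higher in the 7KC group without overlap, as were 25.1% of all tested genes. Their summed level was 28.2 and 19.3 FPKM in the controls, against 60.3 and 58.3 FPKM with 7KC, a ratio of 2.50 beside 2.39 for the Schlafen sum. The ratio was 2.82 for NK cells, 2.89 for monocytes and recruited macrophages and 2.15 for dendritic cells. None of these ratios was compared with the Schlafen ratio by a test. With limma 1 of the 14 passed, Cd247 of the T-cell receptor complex, against 0.48% of all tested genes that passed as higher. All 14 were higher at an unadjusted p under 0.05, as were 12% of all tested genes. In the 7 tested NK-cell markers the groups did not overlap either, and the sum over all 10 was 10.96 and 8.66 FPKM in the controls, against 32.1 and 23.2 FPKM with 7KC. None of the 7 passed with limma, and all 7 were higher at an unadjusted p under 0.05. Klrb1c, Klre1 and Prf1 were under 0.5 FPKM in both control libraries, so they met the filter only through their 7KC values. That these markers were higher was thus favoured by the filter. Of 12 markers of monocytes and recruited macrophages, 9 were higher without overlap. The sum of all 12 was 693 and 451 FPKM in the controls, against 1328 and 1982 FPKM with 7KC. Most of it was Lyz2, at 538 and 321 FPKM in the controls, then at 995 and 1583 FPKM with 7KC. With limma none of the 12 markers passed, and 9 were higher at an unadjusted p under 0.05.

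The lists of the other cell types were not compared with these by a test. Of all tested genes 25.1% were higher without overlap, and the share that was lower without overlap was not determined. Resident Kupffer cell markers summed to 798 and 750.0 FPKM in the controls, then to 1068 and 1539 FPKM with 7KC, and 6 of 9 were higher without overlap and 2 lower. Dendritic-cell markers summed to 9.18 and 5.95 and to 14.0 and 18.5 FPKM, with 3 of 5 tested markers higher without overlap. Neutrophil markers summed to 35.5 and 19.9 FPKM in the controls, then to 40.5 and 43.4 FPKM with 7KC, with 2 of 4 tested markers higher without overlap. B-cell markers (9.14 and 3.39 FPKM, then 7.89 and 7.62 FPKM) and endothelial markers (124 and 151 FPKM, then 114 and 168 FPKM) overlapped between the groups in their sums. The cholangiocyte sum, with the highest ratio of all cell type lists (3.64), rested on Spp1, which macrophages also express, and 2 of its 4 tested markers were higher without overlap and 1 lower. The summed hepatocyte markers had a ratio of 0.688, and 7 of 10 were lower without overlap. For stellate cells the ratio was 0.812, with 4 of 8 lower without overlap. For erythroid cells it was 0.747, with 1 of 2 tested markers lower without overlap. The erythroid sums overlapped between the groups (112 and 71.3 FPKM, then 76.6 and 60.7 FPKM with 7KC). With limma none of the 56 tested markers of these 9 lists passed. At an unadjusted p under 0.05 there were 11 higher and 3 lower among them, where 12% of all tested genes were higher. Of the 11, 5 were resident Kupffer cell markers, out of 9 tested. Their median log2 change was 0.83, beside 0.82 for the 5 tested Schlafen members. Dendritic cells and neutrophils had 2 each, B cells and cholangiocytes 1 each. No endothelial, stellate, hepatocyte or erythroid marker was higher at this p. Of all cell type lists only the erythroid one had a defining marker at 0 in every library. None of the Schlafen genes was measured in sorted cells, and the part of these cell types in the Schlafen values was not tested.

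**Figure D5:**
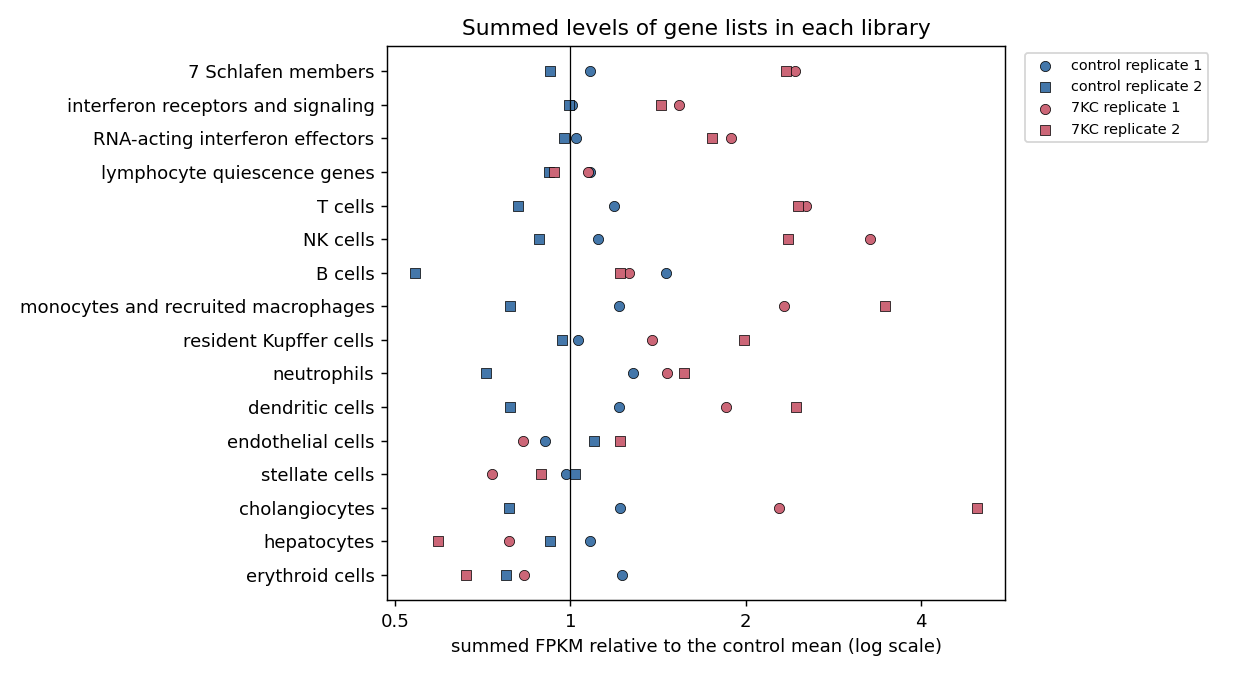
Summed FPKM of each gene list in each library relative to the mean of the control libraries (log axis). The sum of the 7 Schlafen genes lies more than 2-fold above the control mean in both 7KC libraries. So do those of T cells, NK cells, monocytes and recruited macrophages (mostly Lyz2), and cholangiocytes (mostly Spp1).

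Genes with the most similar profiles over the 4 libraries were listed for the 3 most abundant members, by the root mean square difference of log2(FPKM + 0.5) centred on each gene's mean. This is a description over 4 libraries that share their scaling. Closest to Slfn2 were Nkg7, a gene of cytotoxic granules (difference 0.0413), Racgap1 of cytokinesis (0.0504) and Marcksl1 (0.0527). Nkg7 was at 6.09 and 4.56 FPKM in the controls, then at 15.0003 and 12.97 FPKM with 7KC. Closest to Slfn5 were the copper transporter gene Slc31a2 (0.0247), Ahnak (0.0419) and Fam49a (0.0456). Closest to Slfn1 were Oasl2 (0.0464), the adhesion molecule gene Icam1 (0.0525) and Phf11b (0.0526). Oasl2 was at 3.21 and 3.22 FPKM in the controls, then at 10.5 and 8.71 FPKM with 7KC.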

How the data were processed

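RNA sequencing libraries (stranded mRNA kit, 75-base single-end reads) were made by the authors from liver. The submitters' processing notes name mm10, TopHat2 2.1.1, Bowtie2 2.2.8, SAMtools 0.1.18 and Cuffdiff 2.2.1, whereas the methods of the study give other versions of the mapping tools and Cufflinks for FPKM. The deposited values are FPKM, given once per gene symbol in each library. The annotation and the settings for strand and multi-mapped reads are not given in the sources used here.

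Groups were taken from the sample labels. Values were compared as log2(FPKM + 0.5) with limma 3.58.1 in R 4.3.3 (lmFit, eBayes with a trended prior variance, group as the only term, 2 residual and 3.27 prior degrees of freedom), over genes averaging 0.5 FPKM or more, with Benjamini-Hochberg adjustment and a threshold of 0.05. The fit was tested on simulated data. The series design gives n = 2 a group, and whether each library is a separate mouse is not said further, so p-values measure the spread between these samples, which may be technical. Members and lists were chosen with earlier results of these data known. Named were the 7 members, other Slfn symbols, list genes past the threshold (at least 2 per pathway list where tested), the 2 nearest neighbours on each side and the 3 most similar genes of the 3 most abundant members. Some genes of the lists that this rule would name are not reported here.

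Depth was estimated as the number of mapped reads at which low FPKM values of single-transcript genes, with GENCODE M21 lengths less 200 bases, came nearest to whole reads. Within 0.1 of a whole read lay 69.5% to 73.2% of the values, against 12.6% to 14.9% at wrong depths. Read numbers describe depth and counting error only and entered no test. For genes with several transcripts they are approximate.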

Additional observations from a re-analysis of the deposited data

How the results depend on the processing

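The direction of Slfn1, Slfn2, Slfn5, Slfn8 and Slfn9 was the same under the 14 alternatives tried, whereas the number past the threshold, 1 with the settings of the report, depended on the processing. It was 2 with a pseudocount of 1 FPKM (Slfn1 and Slfn2) and 3 after rescaling each library to the same sum of FPKM (Slfn1, Slfn2 and Slfn5). It was 0 with a pseudocount of 0.1 FPKM, without a filter, with a mean of at least 1 FPKM, without a trend in the prior variance and with quantile normalization. In each of these all 5 had an unadjusted limma p under 0.05. Leaving out 1 library, where the lone sample is assumed to vary like the other group, gave 0 to 2, with 2 only without control replicate 1. The genes higher past the threshold among all tested, 59 with the settings of the report, numbered 0 without a filter and 398 after rescaling, and 2 to 389 without 1 library. Over the alternatives the log2 change ranged from 1.14 to 1.64 for Slfn1 (adjusted p 0.0221 to 0.252), from 1.18 to 1.57 for Slfn2 (0.0161 to 0.315), from 0.72 to 1.01 for Slfn5 (0.0497 to 0.413), from 0.66 to 0.98 for Slfn8 (0.0514 to 0.398) and from 0.59 to 0.999 for Slfn9 (0.0736 to 0.398). Rescaling to the same sum moved the median of all tested genes to 0.16. Relative to it the log2 changes were 1.38, 1.42, 0.85, 0.82 and 0.77 in the same order, and the ratio of the summed level became 2.76. Without a library that ratio was between 2.21 and 2.59, and the count of members at least 2-fold higher without overlap, 4 of 7 in the report, was between 3 and 6. The 6, without control replicate 1, include the untested Slfn3 and Slfn4, whose remaining control library held about 1 and 8 reads. The cause of these shifts was not tested.

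Same-numbered libraries deviated from their group means in opposite directions (correlation across genes -0.14). With 2 libraries a group the other pairing must give the opposite value, 0.14, so this cannot settle whether the libraries were paired. With the replicate block 0 members passed by limma (5 at an unadjusted p under 0.05), and with the crossed replicate block, chosen after seeing the data, 2 passed. The values of Slfn3 and Slfn4 stand for 1 to 25 reads. For Slfn4 the coefficient of variation between libraries (53.5% and 44.2%) was above the counting error of 19.9% to 35.1%. Within a fit, 2 libraries a group leave 2 residual degrees of freedom.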
